A study of Homo sapiens with 6 samples.

Results

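The genes described here are OSCP1, CCDC113, NEK10, MAPK15, RAB36, LMLN, FAM227A and BBOF1, 8 of the 17427 genes tested and of the 63140 in the count table. They were chosen by name because their read counts were among the largest increases of expressed protein-coding genes in HEK293T cells given miR-34a, so the increase itself is a description of how they were picked and carries no test. In the miR-34a group, cells of HEK293T, a transformed human line of embryonic kidney origin, received a duplex of miR-34a, and total RNA was taken 18 h later. In the control group, cells of the same line received the AllStars negative control and were collected at the same time. The labels call that control an siRNA in one place and a miRNA in another. Each group had 3 libraries of bulk RNA, described as biological replicates, and the spread given here is between these libraries of 1 line.

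A cilium is a slender projection built on a basal body, which is a centriole docked at the cell surface. A primary cilium is single and mostly serves signalling, whereas motile cilia carry an axoneme of doublet microtubules with dynein arms, radial spokes and nexin links, and many of them beat together on airway, ependymal and oviduct cells. HEK293 cells can form primary cilia. The link of the 8 genes to cilia comes from published work and not from these libraries. It is well known for NEK10, MAPK15, CCDC113 and BBOF1, rests on a close relative for RAB36, and is less well established for OSCP1, LMLN and FAM227A.

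miR-34a belongs to a family with the same seed as the miR-449 microRNAs, which are abundant in multiciliated epithelium, and the seed is the stretch that pairs with target messages. The mature sequences are shown because the sites searched for below follow from their common seed, bases 2 to 8, in capitals. They are as listed in RefSeq, and miR-34a-5p lies at chr1:9151735-9151756 on the minus strand of GRCh38.
hsa-miR-34a-5p: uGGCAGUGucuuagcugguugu
hsa-miR-449a: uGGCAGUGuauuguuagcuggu
hsa-miR-449b-5p: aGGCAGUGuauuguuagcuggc

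Library totals were 25198898, 29136281 and 36650331 counts with miR-34a and 24728662, 32322583 and 32849065 counts in control. Of the tested genes, 938 were higher with miR-34a (5.38%) and 1167 lower (6.7%) at an adjusted p under 0.05 in the quasi-likelihood test of edgeR. The 10 marker genes of HEK293T cells all passed the filter on low counts, with a summed level of 708 to 745 CPM with miR-34a and 743 to 786 CPM in control. Here CPM is the usual count scaled to library size, not divided by gene length. Of the HEK293T markers, LIN28B was called higher (log2 fold change 0.28), NEFM (-0.22) and NEFL (-0.32) lower, and 7 did not pass. The calls of LIN28B, NEFM and NEFL were lost in 2, 4 and 1 of the 6 fits that left out a library, in that order. Of 11 measured marker genes of multiciliated cells, SNTN and TEKT1 were at 0 counts in all libraries, and the list summed to 13.0 to 15.4 CPM with miR-34a and 13.3 to 15.8 CPM in control. Of its 7 tested genes, FOXJ1 was called higher and MCIDAS, a coactivator that starts multiciliation, lower (log2 fold change -0.61, edgeR adjusted p = 0.034), and 5 did not pass. FOXJ1, with 0, 10 and 0 counts in control, reached the count minimum of the filter in all miR-34a libraries but not in all control libraries. Its call was lost in 5 of the 6 fits that left out a library. The MCIDAS call was lost in 4 of the 6 fits that left out a library, those without replicates 1 and 3 of the control and replicates 1 and 2 of miR-34a. Blood cell markers summed to at most 0.0541 CPM with miR-34a and 0.0622 CPM in control, and fibroblast markers to 23.6 to 25.3 CPM with miR-34a and 23.0 to 29.6 CPM in control. One miR-34a library, replicate 2, stood apart at SIRT1, with 428 CPM against 49.7 and 73.3 CPM in the other miR-34a libraries and 92.4, 71.1 and 83.7 CPM in control. Leaving that library out left the median log2 fold change of the 8 genes at 1.26, as with all libraries.

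All 8 genes passed the filter on low counts. Each had every miR-34a library above every control library, a separation that 13.1% of all tested genes showed, and each was at least 2-fold higher, as were 79 tested genes that the test called higher. As the genes were picked for this contrast, these counts say nothing more about them. The median log2 fold change of the 8 was 1.26, with a range of 1.07 to 1.67, beside a median of -0.00407 over all tested genes. Summed over the 8 genes, the level was 183, 199 and 199 CPM with miR-34a and 84.6, 79.2 and 79.4 CPM in control. In bulk RNA, more cells that express a gene and more RNA per cell cannot be told apart.

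OSCP1, also known as NOR1, was first described as a partner that raises organic solute transport in frog oocytes. It had 21.0, 22.4 and 20.8 CPM with miR-34a, against 6.67, 6.86 and 6.68 CPM in control. It was the largest of the 8 increases, and its libraries were nearly level within each group: the lowest miR-34a library was 3.03 times the highest control library. The means were 21.4 ± 0.907 CPM with miR-34a and 6.74 ± 0.108 CPM in control (SD, n = 3 each), a log2 fold change of 1.67 ± 0.10 (SE). The gene (ENSG00000116885) lies at chr1:36415827-36450451 on the minus strand of GRCh38, per GENCODE 29.

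CCDC113 is a coiled-coil protein of centriolar satellites, the granules that carry material to the centrosome, and in Tetrahymena it works with CCDC96 next to the nexin links of the axoneme. Its levels were 23.0, 28.4 and 24.5 CPM with miR-34a, against 10.1, 9.08 and 11.2 CPM in control. The miR-34a libraries differed more among themselves than those of OSCP1, with replicate 2 the highest, and the groups stayed apart. The log2 fold change was 1.32 ± 0.11 (SE), with means of 25.3 ± 2.75 CPM with miR-34a and 10.2 ± 1.08 CPM in control (SD, n = 3 each). The gene (ENSG00000103021) is at chr16:58231157-58283836, plus strand.

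BBOF1 is named for keeping basal bodies aligned in the multiciliated skin cells of frog embryos. It had 12.4, 13.7 and 14.1 CPM with miR-34a, against 6.54, 4.69 and 5.19 CPM in control, where replicate 1 was the highest. Its control libraries varied most of the 8 genes, with a coefficient of variation of 17.5%. The mean was 13.4 ± 0.864 CPM with miR-34a and 5.48 ± 0.956 CPM in control (SD, n = 3 each), a log2 fold change of 1.31 ± 0.13 (SE). The gene (ENSG00000119636) lies at chr14:74019353-74082863 on the plus strand.

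Among the 2 kinases, NEK10 is a NIMA-related kinase of motile ciliated airway cells, and inherited loss of it in people causes bronchiectasis. Its level was 13.3, 11.98 and 13.7 CPM with miR-34a, against 6.30, 4.82 and 5.41 CPM in control. The groups were apart although replicate 2 was the lowest of both. The means were 13.0 ± 0.891 CPM with miR-34a and 5.51 ± 0.745 CPM in control (SD, n = 3 each), a log2 fold change of 1.25 ± 0.13 (SE). NEK10 (ENSG00000163491) spans chr3:27110085-27369460 on the minus strand.

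MAPK15, also called ERK7 or ERK8, is an atypical MAP kinase that sits at basal bodies and is needed for cilium formation in frog and human cells. It had 25.0, 31.0 and 25.4 CPM with miR-34a, against 12.5, 12.6 and 10.6 CPM in control. Its miR-34a libraries varied most of the 8 genes, with a coefficient of variation of 12.2%, and replicate 2 was the highest. With means of 27.1 ± 3.32 CPM with miR-34a and 11.9 ± 1.09 CPM in control (SD, n = 3 each), the log2 fold change was 1.19 ± 0.10 (SE). MAPK15 (ENSG00000181085) is at chr8:143716259-143722458, plus strand.

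RAB36 is a small GTPase of vesicle traffic and the closest relative of RAB34, which acts at the ciliary vesicle in the early steps of intracellular cilium formation. It was at 35.3, 34.2 and 37.8 CPM with miR-34a, against 14.03, 15.6 and 14.98 CPM in control. The lowest miR-34a library was more than 2-fold above the highest control one (2.19), second to OSCP1 in that ratio. RAB36 averaged 35.8 ± 1.83 CPM with miR-34a and 14.9 ± 0.797 CPM in control (SD, n = 3 each), a log2 fold change of 1.26 ± 0.09 (SE). The gene (ENSG00000100228) lies at chr22:23145326-23164350 on the plus strand. RAB34 was at 34.5, 33.97 and 37.0 CPM with miR-34a, against 34.4, 43.8 and 44.7 CPM in control, a log2 fold change of -0.22 that did not pass the edgeR test (adjusted p = 0.11). Without control replicate 1 RAB34 was called lower (edgeR adjusted p = 0.0057).

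LMLN is a leishmanolysin-like metallopeptidase, whose fly homologue, invadolysin, is needed for mitosis and cell migration. It had 26.8, 27.9 and 30.9 CPM with miR-34a, against 14.6, 12.8 and 13.5 CPM in control. It had the smallest increase of the 8, a log2 fold change of 1.07 ± 0.09 (SE), and the groups did not overlap. Its mean was 28.5 ± 2.10 CPM with miR-34a and 13.6 ± 0.944 CPM in control (SD, n = 3 each). LMLN (ENSG00000185621) is at chr3:197960200-198043720, plus strand.

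FAM227A encodes a protein with no well described function. Its level was 26.3, 29.6 and 32.1 CPM with miR-34a, against 13.9, 12.8 and 11.8 CPM in control. The lowest miR-34a library lay well above the highest control one. The means were 29.3 ± 2.94 CPM with miR-34a and 12.8 ± 1.04 CPM in control (SD, n = 3 each), and the log2 fold change was 1.20 ± 0.10 (SE). FAM227A (ENSG00000184949) is at chr22:38578120-38656629, minus strand. Its paralogue FAM227B was at 2.07, 3.15 and 2.43 CPM with miR-34a, against 2.09, 1.89 and 2.49 CPM in control, and did not pass (log2 fold change 0.25, edgeR adjusted p = 0.55). FAM227B shares 15.1% of its exonic bases with GALK2 on the other strand, and the library chemistry does not mark strand, so its level is uncertain.

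**Figure D1:**
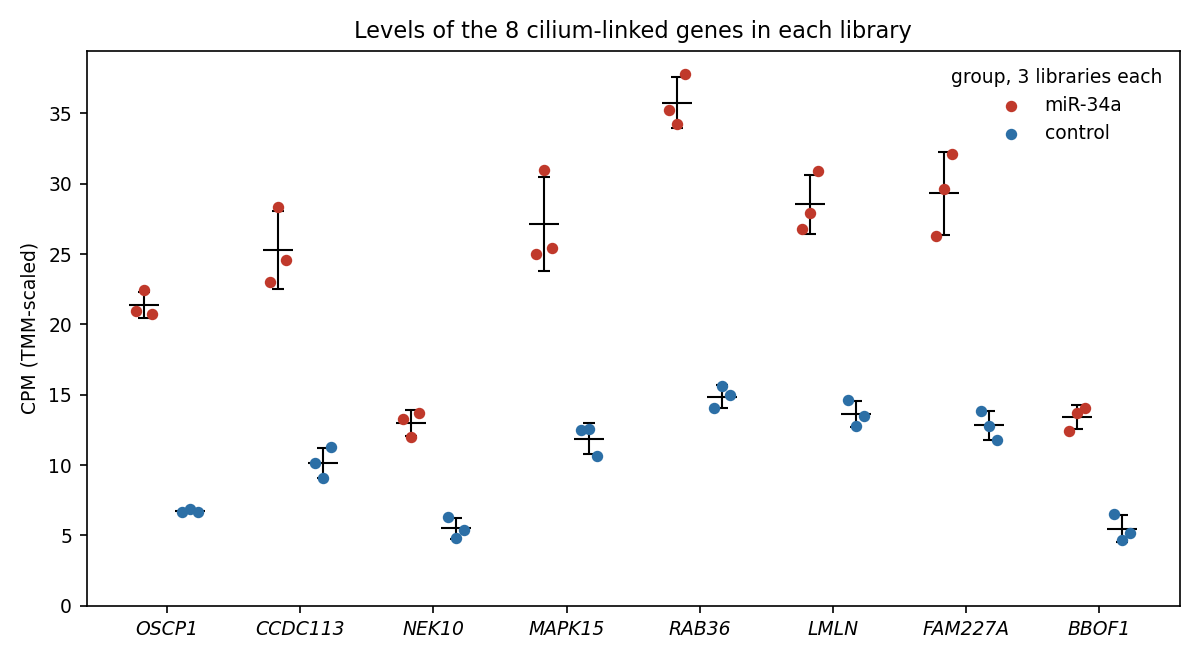
Levels of the 8 genes in each library, in CPM on a linear axis, with miR-34a libraries left of control libraries, a point per library, a line at the group mean and bars of 1 SD. The miR-34a libraries sit above the control libraries for each gene, by the largest ratio for OSCP1, at 20.8 to 22.4 CPM with miR-34a and 6.67 to 6.86 CPM in control.

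Among protein-coding genes with a mean of at least 3 on the log2 CPM scale, called higher and with groups apart, the log2 fold changes ranked OSCP1, CCDC113, BBOF1, RAB36, NEK10, FAM227A and MAPK15 from 1 to 7. LMLN ranked 10. The places between were held by IFT88 (1.10), a subunit of intraflagellar transport, and TCTN2 (1.09), which belongs to the transition zone at the base of the cilium, neither of which is among the 8. Just outside the 10 were CLBA1, with a log2 fold change of 0.998, and DNAL1, an axonemal dynein light chain, with 0.93. This ranking covers 728 genes of the 9926 above that level. Below it, 49 further protein-coding genes were called higher, with groups apart, and had a larger log2 fold change than LMLN. The ranking thus holds only above that level, and NEK10 (3.09) and BBOF1 (3.10) lie just over it. The median level of the 8 was 4.09 on the log2 CPM scale, beside 4.91 for the tested protein-coding genes.

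**Figure D2:**
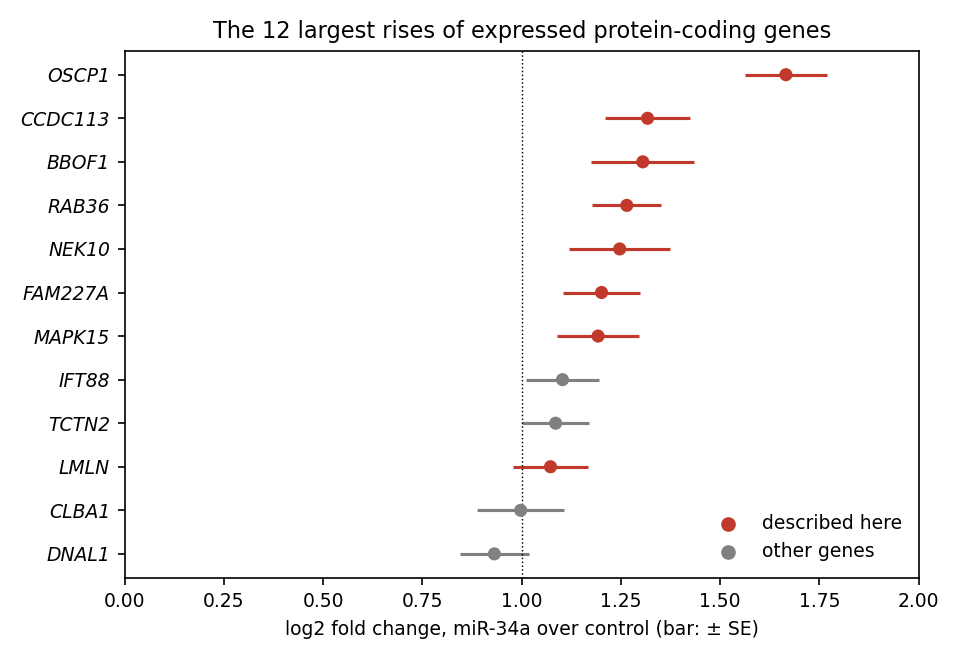
Log2 fold change, miR-34a over control, with a bar of 1 SE, of the top genes in the ranking described above, the 8 genes in red, other genes in grey and a dotted line at 1. The 8 genes lie between 1.07 and 1.67, with IFT88 and TCTN2 between MAPK15 and LMLN.

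To compare levels between genes, CPM was divided by the length of all annotated exons in kb. With miR-34a, MAPK15 came first with 8.88 ± 1.09 CPM per kb, then RAB36 with 8.71 ± 0.445, OSCP1 with 7.67 ± 0.325, CCDC113 with 4.27 ± 0.465, LMLN with 3.28 ± 0.241, BBOF1 with 2.90 ± 0.187, FAM227A with 2.72 ± 0.273 and NEK10 with 1.36 ± 0.0930 CPM per kb (SD, n = 3 each). In control the order was MAPK15 with 3.89 ± 0.357 CPM per kb, RAB36 with 3.62 ± 0.194, OSCP1 with 2.42 ± 0.0386, CCDC113 with 1.71 ± 0.183, LMLN with 1.57 ± 0.109, FAM227A with 1.19 ± 0.0967, BBOF1 with 1.19 ± 0.207 and NEK10 with 0.575 ± 0.0778 (SD, n = 3 each). MAPK15 and RAB36, and BBOF1 and FAM227A, overlapped in both groups, and CCDC113 and LMLN overlapped in control. All other neighbours in the order were apart. The order depends on the length used: with the longest transcript, OSCP1 ranked 1 with miR-34a and 2 in control.

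**Figure D3:**
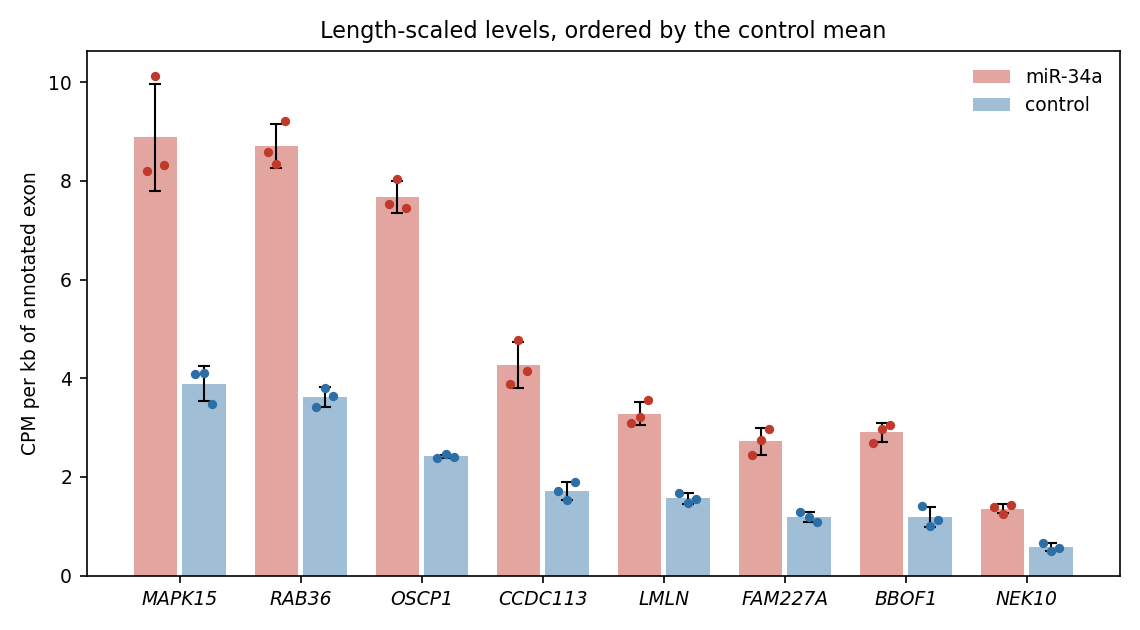
Levels per kb of annotated exon, with bars at the mean, error bars of 1 SD and a point per library, miR-34a left of control for each gene. NEK10 is the lowest of the 8 in both groups, at 1.36 CPM per kb with miR-34a and 0.575 CPM per kb in control.

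Within groups the genes did not all move with 1 library. With miR-34a, replicate 1 was the lowest library for 5 of the 8 genes and the highest for 0, while replicate 3 was the highest for 5 and replicate 2 for 3. In control, replicate 1 was the highest for 4 genes and replicate 2 the lowest for 4. The coefficient of variation had a median of 7.10% with miR-34a and 8.65% in control.

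Reads that fall where exons of 2 genes overlap cannot be assigned without strand. BBOF1 is the 1 member whose exons overlap those of tested genes. It shares 670 bp, 14.5% of its exonic bases, with ALDH6A1, a mitochondrial enzyme of valine breakdown on the opposite strand. ALDH6A1 was at 30.1, 31.5 and 33.2 CPM with miR-34a, against 34.7, 34.2 and 36.4 CPM in control, and did not pass (log2 fold change -0.15, edgeR adjusted p = 0.25). Each miR-34a library of ALDH6A1 lay slightly below each control library, a separation that 14.2% of all tested genes showed. BBOF1 also shares 47 bp with ENTPD5, an endoplasmic reticulum nucleotidase, which was higher with miR-34a, at 32.1 ± 0.653 CPM, against 24.2 ± 1.26 CPM in control (SD, n = 3 each; log2 fold change 0.41, edgeR adjusted p = 0.00092). How many reads of BBOF1 come from either partner was not tested. CCDC113 shares 761 bp with PRSS54, which had 3 counts in 1 miR-34a library and 0 in the others. MAPK15 and LMLN overlap antisense genes with at most 5 counts per library.

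The nearest protein-coding genes on either side that do not overlap a member were read next, 15 in all, of which 14 were tested. Among these, 3 were higher, 3 were lower and 8 did not pass, where 12.1% of all tested genes were called in either direction. The 3 higher ones were IQCG, CBY1 and LIN52. IQCG, a subunit of the nexin-dynein regulatory complex, had 11.6, 13.4 and 12.4 CPM with miR-34a, against 7.65, 5.79 and 7.83 CPM in control (log2 fold change 0.82 ± 0.13 SE, edgeR adjusted p = 5.8e-05). Its start lies 58 bp from that of LMLN, on the opposite strand. CBY1, a basal body protein that also binds beta-catenin, had 27.5, 31.9 and 26.7 CPM with miR-34a, against 21.2, 23.8 and 23.4 CPM in control (log2 fold change 0.33 ± 0.09 SE, edgeR adjusted p = 0.016). The CBY1 call was lost without miR-34a replicate 2 (edgeR adjusted p = 0.15), and 44.8% of CBY1 exonic bases overlap an antisense gene with a mean of 3.41 CPM in control. Its start is 7 bp from that of FAM227A.

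LIN52, a subunit of the MuvB complex beside BBOF1, had a log2 fold change of 0.28 (edgeR adjusted p = 0.017). That call was lost without miR-34a replicate 1 (edgeR adjusted p = 0.060), without miR-34a replicate 3 (0.051) or without control replicate 3 (0.068). The 3 lower neighbours were GINS3, a replication fork subunit beside CCDC113 (log2 fold change -0.94, edgeR adjusted p = 1.6e-08), SLC4A7, a bicarbonate transporter beside NEK10 (-0.55, adjusted p = 0.00010), and LSM10, a histone mRNA processing factor beside OSCP1 (-0.45, adjusted p = 0.00071). RSPH14, a radial spoke protein whose start is 305 bp from that of RAB36, had 0.914, 1.03 and 1.03 CPM with miR-34a, against 0.572, 0.427 and 0.653 CPM in control. Its groups were apart, but it did not pass (log2 fold change 0.85 ± 0.35 SE, edgeR adjusted p = 0.13), and 11.2% of its exonic bases lie under GNAZ, at a mean of 18.3 CPM in control.

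Starts of protein-coding genes on the other strand within 1000 bp were then counted, with genes that overlap at their starts included. RAB36, LMLN, FAM227A and BBOF1 have such a start, 4 of 8 genes, beside 2285 of 13486 tested protein-coding genes (16.9%). The partner of BBOF1 is ENTPD5, which overlaps it, with starts 46 bp apart. Without overlapping starts the count was 3 of 8, beside 1272 of 13486 (9.43%). These are counts over 8 genes and were given no test. Of the 4 partners, IQCG, CBY1 and ENTPD5 were called higher and RSPH14 did not pass.

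**Figure D4:**
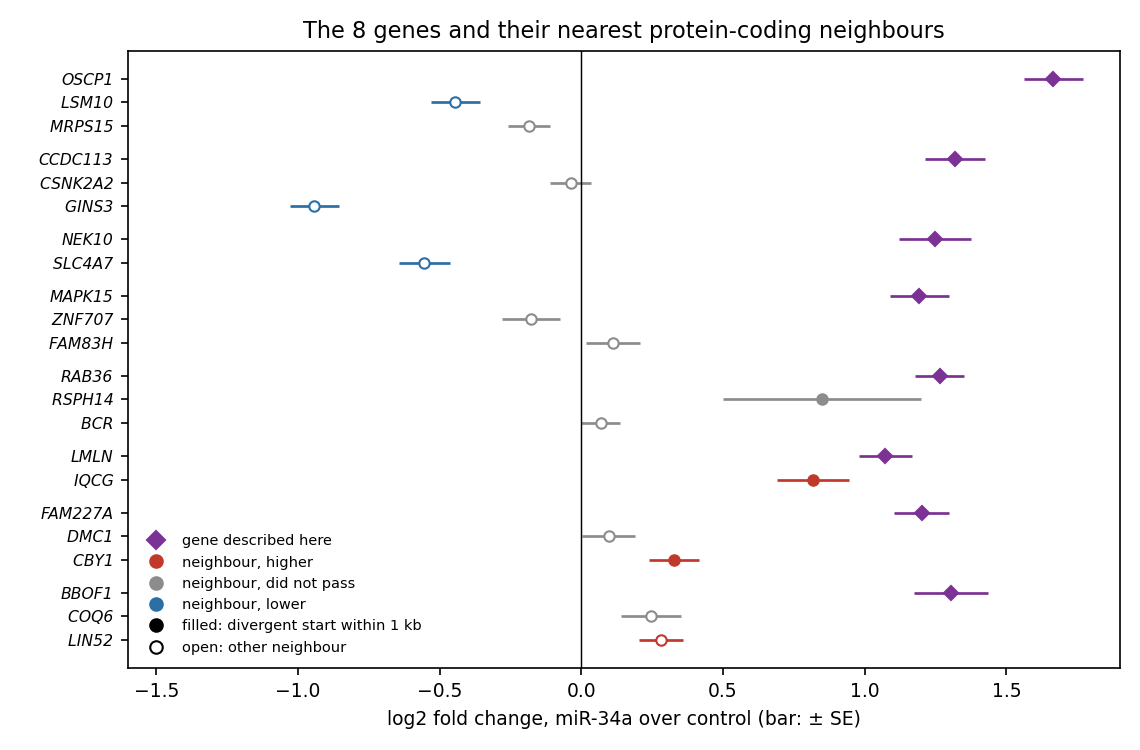
Log2 fold change, miR-34a over control, with a bar of 1 SE, for the 8 genes and their nearest tested protein-coding neighbours without overlap, listed by member. Neighbours with a divergent start within 1000 bp are filled; IQCG lies at 0.82, CBY1 at 0.33 and RSPH14 at 0.85, while GINS3 is lowest at -0.94.

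Sites for miR-34a-5p were searched in 3′ untranslated regions (UTRs) as the 6mer ACTGCC, the 7mer-A1 ACTGCCA, the 7mer-m8 CACTGCC and the 8mer CACTGCCA, of which the longer hold the shorter. RAB36 was the 1 member with a 7mer or 8mer, 12.5% of the 8, beside 2709 of 12916 tested protein-coding genes with a classed 3′ UTR (21.0%). The median 3′ UTR was 356 nt for the 8 genes and 1052.5 nt for those genes. For each gene only the transcript with the longest coding sequence was searched, so sites in other transcripts were not looked for. The RAB36 7mer starts 831 nt after the stop codon, and 6mers start at 2254 and 2722 nt. The sites are shown, on the plus strand of chromosome 22 in GRCh38 with the match to the seed in capitals, because they lie in a message that was higher and not lower with miR-34a. A match is a description of letters and not a tested site. Among the neighbours called, GINS3, which was lower, had an 8mer and CBY1, which was higher, a 7mer-m8, while SLC4A7 and LSM10, both lower, and IQCG and LIN52, both higher, had neither.
RAB36 7mer-m8, chr22:23162395-23162401: gaacatggCACTGCCctcctctg
RAB36 6mer, chr22:23163818-23163823: ctggacatACTGCCtggcagcc
RAB36 6mer, chr22:23164286-23164291: agagctgtACTGCCtcacgtac

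Promoters, 250 bases before to 50 after the start, came from RefSeq on GRCh38.p14, which matched NEK10, LMLN, BBOF1 and FAM227A; OSCP1, CCDC113, MAPK15 and RAB36 had no match. They were searched on both strands for the X-box bound by RFX factors and for an X-box arm in the form GTTNCC. The CCAAT box, the forkhead letters TAAACA and the E2F letters TTTNNCGC were searched as well. RFX and forkhead factors such as FOXJ1 are known regulators of cilium genes. Over 35116 promoters, 1.31% held the X-box, 45.4% the X-box arm, 34.6% a CCAAT box, 12.3% the forkhead letters and 6.89% the E2F letters. None of the entries of these 4 genes held the X-box, the forkhead or the E2F letters. LMLN held CCAAT boxes 174 and 90 bases before its RefSeq start and an X-box arm 7 bases after it. FAM227A held CCAAT boxes at 173 and 50 bases and X-box arms at 209 and 193 bases before its RefSeq start. The stretch at 193 bases, GTTCCC, fits the arm form GTTNCC but neither arm of the whole X-box as searched. NEK10, in the entry near the gene start, held 3 CCAAT boxes, 108, 66 and 23 bases before the RefSeq start, a number that 3.26% of promoters reach. BBOF1 held no motif of the 5. The 3 promoters with matches are shown 5′ to 3′ on the gene's strand, with CCAAT boxes (CCAAT or ATTGG) and X-box arms (GTTNCC or GGNAAC) in capitals. LMLN and FAM227A were taken because their divergent neighbours IQCG and CBY1 were also called higher, and NEK10 for its 3 CCAAT boxes. The RefSeq starts lie 17, 237 and 77 bases downstream of the GENCODE 29 starts of LMLN, FAM227A and NEK10, in that order. The distances between neighbouring starts given above use the GENCODE 29 starts. All motifs marked in FAM227A, and the NEK10 CCAAT boxes at 66 and 23 bases, thus lie after the GENCODE 29 start. A further NEK10 entry inside the gene is not shown.
LMLN promoter, chr3:197959967-197960266, plus strand: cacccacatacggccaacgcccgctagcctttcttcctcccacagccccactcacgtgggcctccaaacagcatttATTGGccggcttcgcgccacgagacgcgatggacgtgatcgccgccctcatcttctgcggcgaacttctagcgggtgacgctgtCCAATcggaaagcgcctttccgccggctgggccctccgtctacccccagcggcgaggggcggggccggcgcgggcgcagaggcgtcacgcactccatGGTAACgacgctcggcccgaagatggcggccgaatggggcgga
FAM227A promoter, chr22:38656343-38656642, minus strand: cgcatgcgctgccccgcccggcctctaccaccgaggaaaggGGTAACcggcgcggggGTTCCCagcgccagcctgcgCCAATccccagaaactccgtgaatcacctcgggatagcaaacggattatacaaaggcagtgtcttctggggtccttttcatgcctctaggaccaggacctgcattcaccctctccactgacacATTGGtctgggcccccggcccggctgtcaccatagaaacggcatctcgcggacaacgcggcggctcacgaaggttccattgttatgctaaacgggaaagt
NEK10 promoter, chr3:27369334-27369633, minus strand: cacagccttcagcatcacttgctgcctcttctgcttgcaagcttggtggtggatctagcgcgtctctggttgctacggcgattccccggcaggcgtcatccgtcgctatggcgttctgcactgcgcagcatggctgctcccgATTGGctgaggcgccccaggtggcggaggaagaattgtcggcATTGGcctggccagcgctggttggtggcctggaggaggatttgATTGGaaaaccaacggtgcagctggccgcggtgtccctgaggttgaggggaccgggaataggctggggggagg

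Relatives, partners and regulators of the 8 genes were read in 8 lists, drawn up without the 8 themselves. Of 98 tested genes on the lists, 43 were higher and 8 lower. For 5 of them, CFAP61, FOXJ1, ROPN1L, RSPH1 and CCDC68, the count minimum of the filter was reached in all miR-34a libraries but not in all control libraries. Of these, 4 were called higher, and as they were tested only through the group where they are high, their calls are not read as support. Of the 93 listed genes at the minimum in every library, 39 were higher (41.9%) and 8 lower (8.60%), with a median log2 fold change of 0.21. The same count over all 15654 tested genes at the minimum in every library was 5.82% higher and 7.39% lower. As the lists were chosen with earlier results of these data known, these shares are a description and were given no test.

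The nexin-dynein regulatory complex with CCDC96, the axonemal surroundings of CCDC113, had 7 tested genes of 10, and all 7 were higher, with a median log2 fold change of 0.82. CCDC96 had 3.97, 4.35 and 4.16 CPM with miR-34a, against 1.19, 1.46 and 1.34 CPM in control (log2 fold change 1.64 ± 0.20 SE, edgeR adjusted p = 2.0e-06). It shares 8.99% of its exonic bases with TADA2B on the other strand, which had a mean of 45.2 CPM in control and a log2 fold change of 0.15 that did not pass. For IQCD the log2 fold change was 0.96 (adjusted p = 0.00089) and for DRC3 it was 0.70 (adjusted p = 0.00019). The calls of GAS8 and FBXL13 were lost without 1 library, GAS8 without replicate 2 or 3 of the control or replicate 3 of miR-34a, and FBXL13 without replicate 2 of the control or replicate 1 or 2 of miR-34a. At least 5 of the 7 were called in each of these fits.

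The radial spoke list with MNS1, a partner of BBOF1 in mouse sperm, and FAM227B had 9 genes at the count minimum in every library, of which 4 were higher and 0 lower, with a median of 0.67. The 3 further genes tested only through the miR-34a group, RSPH1, ROPN1L and CFAP61, were also called higher. RSPH3 rose to 28.5, 27.2 and 31.6 CPM with miR-34a, against 19.9, 15.8 and 18.6 CPM in control (log2 fold change 0.69, edgeR adjusted p = 1.2e-05). MNS1 had 10.8, 12.02 and 10.9 CPM with miR-34a, against 7.52, 7.19 and 7.15 CPM in control (log2 fold change 0.63, edgeR adjusted p = 0.00044), but it shares 18.5% of its exonic bases with TEX9, itself higher (0.56, adjusted p = 0.0018). RSPH4A (0.95, edgeR adjusted p = 0.0029) was low, at a mean of 4.08 CPM with miR-34a. The count of higher genes over all 12 tested was 7, and it was 4 without control replicate 2 or without miR-34a replicate 3.

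Among 10 NIMA-related kinases other than NEK10, 5 were higher and 0 lower, with a median log2 fold change of 0.24. They included NEK5 (1.26, edgeR adjusted p = 0.00033) and NEK11 (1.16, adjusted p = 1.4e-05), both low, at means of 1.27 and 2.94 CPM in control. NEK11 shares 4.87% of its exonic bases with ASTE1 on the other strand, which had a mean of 16.8 CPM in control. Also higher were NEK2, the centrosome-splitting kinase of mitosis (0.44, edgeR adjusted p = 0.00012), and NEK7 (0.41, adjusted p = 0.00023). All miR-34a libraries lay above all control libraries for 6 of the 10, and below them for 3, NEK3, NEK6 and NEK8. Those separations were shown by 13.1% and 14.2% of all tested genes. Fits that left out a library called 4 to 6 higher and 0 to 1 lower. The lower one was NEK3 without control replicate 1 and NEK8 without miR-34a replicate 3. Of 13 atypical MAP kinases and other ciliary kinases, 7 were higher and 0 lower, with a median of 0.30. MOK, a MAK-related kinase that restrains cilium length, was higher by 0.90 on the log2 scale (edgeR adjusted p = 5.3e-08), and STK36, a kinase needed for the central pair of motile cilia, had 0.46 (adjusted p = 0.00012). The count fell to 3 without control replicate 2 and to 4 without control replicate 3.

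Of 21 Rab and Arl GTPases of the cilium and their partners, 8 were higher and 1 lower, with a median of 0.08. The count of higher genes was 7 in each of the 6 fits that left out a library. IFT22 (0.75, edgeR adjusted p = 7.7e-07) and RABL2B (0.68, adjusted p = 1.9e-06), which act in or with intraflagellar transport, were among the higher genes. The lower one was RAB11B (-0.28), which did not pass in 4 of the 6 fits that left out a library, those without control replicates 2 and 3 and those without replicates 2 and 3 of miR-34a.

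Centriolar satellites, where CCDC113 is found, had 2 of 11 tested genes higher and 0 lower, with a median of 0.14. These were CEP290, which also sits in the transition zone, with 117, 128 and 136 CPM with miR-34a, against 99.3, 82.7 and 89.6 CPM in control (log2 fold change 0.49, edgeR adjusted p = 6.6e-05), and PCM1, the satellite scaffold (0.27, adjusted p = 0.012). PCM1 did not pass in the fit that left out control replicate 2, with an adjusted p of 0.073, nor in the fit that left out replicate 3 of miR-34a, with 0.064. Basal feet and subdistal appendages, structures of basal body orientation like BBOF1, had 7 genes at the count minimum in every library. Of these, 3 were higher and 0 lower, with a median of 0.16. The 1 further tested gene, CCDC68, did not pass. The higher ones were CEP128 (0.51, adjusted p = 0.00015), ODF2 (0.33, adjusted p = 0.0018) and CNTRL (0.29, adjusted p = 0.029). CNTRL did not pass in the same 4 fits as RAB11B, which left 2 genes.

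The list of ciliary transcription and multiciliation regulators held genes of both directions, with 3 of 15 genes at the count minimum in every library higher, 7 lower and a median of -0.13. The 1 further tested gene was FOXJ1. CCP110, a cap that holds back cilium growth, was higher, at 132, 129 and 134 CPM with miR-34a, against 93.9, 84.1 and 89.2 CPM in control (log2 fold change 0.57, edgeR adjusted p = 1.8e-06). E2F5 (-1.08, adjusted p = 1.6e-08), MYB (-0.97, adjusted p = 0.00015) and NOTCH1 (-0.73, adjusted p = 4.8e-06), which act in the multiciliation programme or its restraint, were lower. E2F5 shares 16.3% of its exonic bases with RBIS on the other strand. FOXJ1, the forkhead factor of motile cilia, had 11, 18 and 18 counts with miR-34a, against 0, 10 and 0 counts in control, and its call (edgeR adjusted p = 0.040) held in 1 of the 6 fits that left out a library, the one without control replicate 2. It was also lost when libraries were scaled by their size alone (edgeR adjusted p = 0.056). RFX3 did not pass (log2 fold change 0.29, edgeR adjusted p = 0.14), with 9.34, 10.5 and 8.84 CPM with miR-34a, against 8.01, 8.23 and 7.21 CPM in control. The count of higher regulators, FOXJ1 included, was 4, and it was 1 without control replicate 3, miR-34a replicate 2 or miR-34a replicate 3, and the count of lower ones was 4 without control replicate 2.

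**Figure D5:**
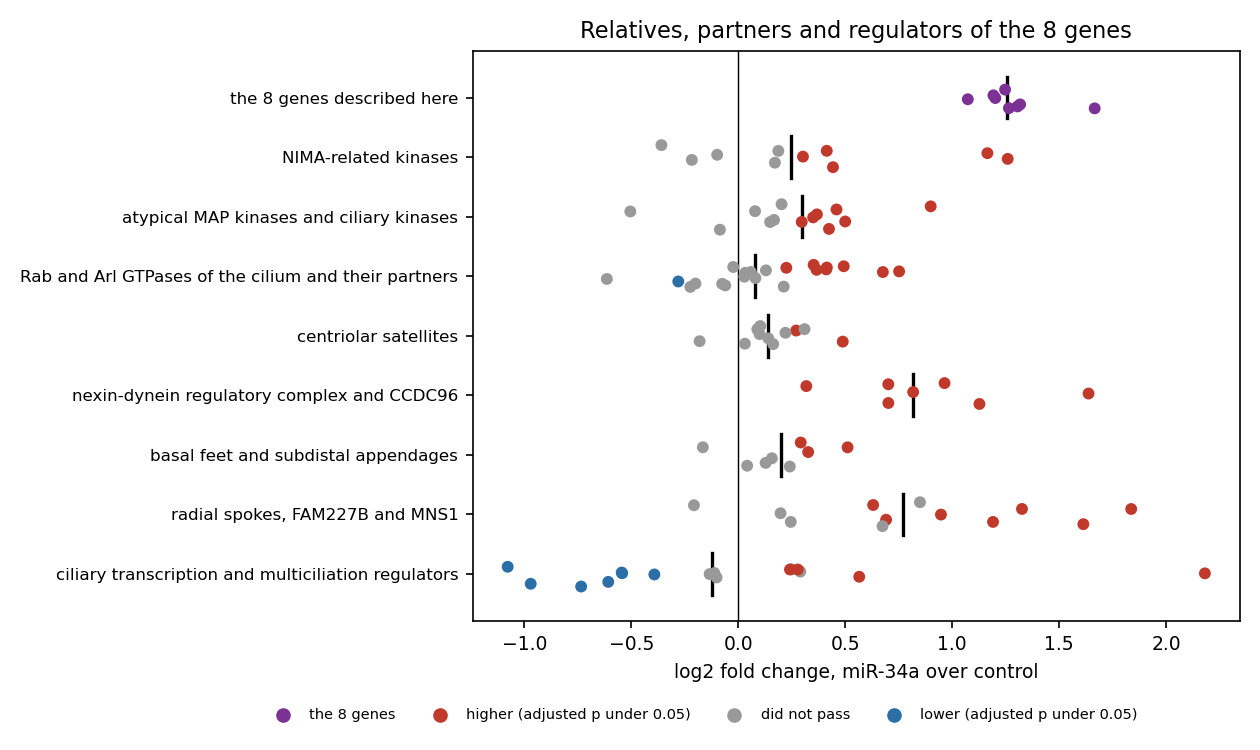
Log2 fold change, miR-34a over control, of the 8 genes and of the tested genes of 8 lists, a point per gene and a line at each median. The 8 genes have a median of 1.26, the nexin-dynein list 0.82 and the regulator list, FOXJ1 included, -0.12.

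The profile of each other gene over the 6 libraries was set against the mean profile of the 8, as the root mean square difference of log2 CPM after centring, over 10259 genes with a mean of at least 3 on the log2 CPM scale. The nearest was NRAV, a long noncoding RNA, with a difference of 0.0947, followed by TCTN2 (0.118), IFT88 (0.134) and MOK (0.195). Among the 8, FAM227A lay closest to the mean of the others (0.0927) and OSCP1 farthest (0.231). NRAV had 19.8 ± 1.14 CPM with miR-34a and 9.09 ± 0.122 CPM in control (SD, n = 3 each). The measure includes the group difference by which the 8 genes were chosen.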

How the data were processed

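Total RNA was purified on columns with a DNase step and made into TruSeq libraries that do not mark strand, per the labels' protocols. The authors deposited raw counts of reads per gene, by Ensembl identifier, with a column for each library. Per the submitters' processing notes, the named tools included edgeR 3.42.4, STAR 2.7.11a and featureCounts with Subread 2.0.3, on GRCh38. Strand setting, annotation release and handling of multiply mapped reads were not given in the sources used here, so overlapping genes cannot be separated.

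From the counts, genes passing filterByExpr of edgeR 4.0.16 (minimum count 10, minimum total 15; R 4.3.3) were scaled by TMM and fitted with the quasi-likelihood test, group as the only term, with Benjamini-Hochberg adjustment over 17427 genes and a threshold of 0.05. CPM uses TMM library sizes, with a prior count of 2 on the log2 scale. The step was tested on simulated data. DESeq2 1.42.0, RLE and library-size scaling, other filters, a replicate block and leaving out each library were alternatives. Library totals bound counting precision; the spread between libraries, with 3 per group, sets the errors.

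Symbols matched 42345 of 63140 identifiers and 15520 of 17427 tested. GENCODE 29 gave coordinates for 58126. Sites were searched in the 3′ UTR of the transcript with the longest coding sequence, where it had at least 50 nt. Named genes were the 8, genes that overlap or neighbour them, the 10 largest increases and the next 2, up to 4 called genes per list by lowest adjusted p, 7 relatives or regulators (RAB34, FAM227B, CCDC96, MNS1, CCP110, RFX3 and FOXJ1) and the nearest profiles, of which a few are not reported here. SIRT1, GAS8, FBXL13, RAB11B, MCIDAS, CFAP61, ROPN1L, CCDC68 and the overlap partners of list genes were named after their values were seen. So were NEK3, NEK6, NEK8, LIN28B, NEFM and NEFL. The 8 genes, the lists and the motifs were chosen with earlier results of these data known.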

Additional observations from a re-analysis of the deposited data

How the results depend on the processing

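The log2 fold changes of the 8 genes kept their direction under 12 alternatives each, 96 values in all, and their median lay between 1.22 and 1.29 when a library was left out. Counts of called genes moved more. Leaving out 1 library gave 525 to 1287 genes higher and 727 to 1394 lower; the counts past 1.5 times from the full fit were 525 higher without control replicate 2, 606 without control replicate 3 and 604 without miR-34a replicate 2, with 727 lower without miR-34a replicate 2. Listed cilium genes ranged over 29 to 41 higher and 5 to 9 lower, the 5 lower occurring without control replicate 2 or miR-34a replicate 2. Fewer samples enter these fits. Other scalings, filters and DESeq2 gave 974 to 1079 higher and 1012 to 1189 lower, and 41 to 44 and 8 listed genes. Same-numbered libraries did not deviate together (correlations -0.025, 0.022 and -0.076 over tested genes). This gave no sign of pairing by number, but with 3 libraries per group it cannot exclude it. With the replicate block, 807 genes were higher and 1023 lower, 41 and 8 on the lists, and the median of the 8 genes was 1.26. Counting over the genes at the filter's minimum in every library, chosen after seeing the data, gave 911 higher and 1157 lower, and 39 and 8 on the lists. Counting error is a larger share of the level of genes with few counts, such as RSPH14 with 14 to 38 counts per library.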
